A study of Mus musculus with 4 samples.

Results

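Enzymes that write, read and remove DNA methylation were followed in double positive thymocytes, immature T cells of the thymus that carry both CD4 and CD8. The genes were the TET dioxygenases Tet1, Tet2 and Tet3, the DNA methyltransferases Dnmt1, Dnmt3a and Dnmt3b, the methylation readers Uhrf1 and Uhrf2, and the glycosylase Tdg. Every probe set (a group of short array probes for one transcript) whose only gene symbol was one of these was taken, which gave 21 of the 34945 probe sets with 1 symbol, for 8 of the 9 genes. Tdg had none, because its 3 probe sets carry the symbols of 2 other sequences as well, and it is not described further. The genes were chosen by name, but with results of these arrays known, so their differences between the groups are a description and support no conclusion.

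The mice all carried the Ikf/f genotype, in which the Ikaros gene Ikzf1 is meant to be deleted wherever Cre recombinase is active. In 2 mice labelled Ikf/f CD4-Cre+ (Cre-positive) Cre came from the CD4-Cre transgene, which acts in CD4-expressing T lineage cells, and 2 mice labelled Ikf/f CD4-Cre- (Cre-negative) lacked it. Mice with the transgene but without Ikf/f were not analysed here, so effects of Cre and of Ikaros loss cannot be told apart. No source used here gives the age of the mice or the way the cells were isolated. Each mouse has its own number in the labels and gave 1 Affymetrix array; no source used here says whether the arrays formed 1 batch. Values are RMA signals (background-corrected, normalized and summarised over a probe set) on a log2 scale, so a difference of 1 is a doubling. Array values of a group are given in the order sample 1, sample 2.

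Cytosine methylation is laid down at unmethylated CpG sites by the de novo enzymes DNMT3A and DNMT3B. It is copied after replication by DNMT1, which UHRF1 guides to newly made DNA, so both are known for high expression in dividing cells. The TET enzymes oxidise 5-methylcytosine, and TDG and base excision repair can then replace the oxidised base. In developing thymocytes TET2 and TET3 are known for demethylation at lineage genes and DNMT1 for the survival of T cell precursors.

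Ikzf1 itself read 12.40 and 12.08 in Cre-negative mice against 10.80 and 10.62 in Cre-positive mice in its brighter probe set, and it fell by 1.53 ± 0.16 (difference ± SE, n = 2 per group; limma adjusted p = 0.0346 with Benjamini-Hochberg adjustment over all probe sets tested). Its dimmer probe set differed by −0.22, and no source used here places the probes relative to the deleted part. Of 8 double positive thymocyte markers with enough signal to test, 0 passed in limma and 2 had an unadjusted p under 0.05. Over the brightest probe sets of all genes tested, 0.885% passed and 19.4% had an unadjusted p under 0.05. Rag1 and Dntt read between 13.25 and 13.51 on all arrays. Among these 8 markers only Dntt overlapped between the groups, while 53.2% of all probe sets above the filter did not overlap. Cd3e differed by 0.41, Cd4 by −0.14 and Rag1 by −0.11. Ptcra, the pre-T cell receptor alpha chain gene, read 8.58 and 8.91 in Cre-negative against 10.08 and 9.74 in Cre-positive mice, a difference of 1.16, while Rag2, Cd8a and Cd8b1 differed by −0.41, −0.30 and −0.29. Cre-negative sample 2 read 12.75 for Xist and 2.87 for the Y-linked gene Kdm5d, against 4.73 to 5.37 and 8.23 to 8.37 on the other 3 arrays, so sex varied within the Cre-negative group. The mean level of 16 S phase genes was 8.56 and 9.31 in Cre-negative against 9.22 and 9.79 in Cre-positive mice. That of 12 G2 and mitosis genes was 7.40 and 8.62 against 8.16 and 9.39. Of 5 lists of markers of other cells, 4 averaged higher in the Cre-positive mice: 11 macrophage and granulocyte genes averaged 5.04 to 5.11 in Cre-negative and 5.91 to 6.19 in Cre-positive mice, 7 dendritic cell genes 5.47 to 5.82 and 6.59 to 6.62, 6 stromal and epithelial genes 5.64 to 5.67 and 6.39 to 6.86, and 3 B cell genes 5.98 to 6.004 and 6.19 to 6.34. Of 3 measured erythroid genes 1 passed the filter, and it read 5.35 and 4.71 against 4.73 and 5.28, a difference of −0.03. Of the stromal and epithelial genes 3 of 6 had a negative difference, the median was 0.21, and the collagen gene Col1a2 read 5.18 and 5.33 against 11.55 and 8.01. The collagen genes Col1a1 and Col3a1 lay below the filter and differed by −0.03 each. By the brightest probe set of each gene, 2 (Ctss and Lyz2), 0, 1 (Pdgfrb) and 0 genes of the 4 lists were called higher and 0 lower in limma, with 5, 4, 2 and 1 at an unadjusted p under 0.05. Over all genes 0.747% were called higher, 0.137% lower, and 19.4% reached that unadjusted p. Another probe set was called higher for Csf1r (1419872_at, 1.21), H2-Aa (1438858_x_at, 1.77) and H2-Ab1 (1451721_a_at, 0.90). Differences were positive in 10 of 11 macrophage and granulocyte genes and in 6 of 7 dendritic cell genes. By their brightest probe sets, however, Csf1r, Adgre1 and Fcer1g differed by 0.19, −0.03 and 0.06 with overlap. Flt3 and Siglech differed by −0.16 and 0.01, also with overlap. S100a8 read 8.38 in Cre-positive sample 2 against 4.02 to 4.52 elsewhere. RMA has no zero, but 2 of 13, 1 of 8, 4 of 10 and 2 of 5 measured markers lay below the signal filter of 4.76. The part of sex, cycling and other cells in the results that follow was not tested. In bulk RNA fewer cells of a type and less RNA per cell cannot be told apart.

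The methylation genes are sorted here by direction alone. Signal was higher in Cre-positive mice for Uhrf1, Dnmt1 and 4 of the 5 Dnmt3a probe sets, while the brightest of Dnmt3a overlapped between the groups. It was lower for Uhrf2 and 1 of the 2 Tet2 probe sets. Tet1, Tet3 and Dnmt3b had smaller or mixed differences. All 21 probe sets had a mean at or above the filter. In 11 of them both Cre-positive arrays lay above both Cre-negative arrays, where 31.5% of all 20967 probe sets above the filter did so. In 4 both lay below, where 21.8% of all did so, and in 6 the groups overlapped. With 53.2% of all probe sets free of overlap in either direction, and several probe sets per gene, nothing is read from these counts. In limma 0 of the 21 passed at an adjusted p under 0.05 over the whole table, 0 higher and 0 lower, where 0.868% of all probe sets passed, 0.639% higher and 0.229% lower, and 7 of 21 had an unadjusted p under 0.05, where 21.2% of all did. The Tet2 probe set 1438781_at was called in some alternative analyses. With 2 arrays per group an exact two-sided permutation test of a single probe set cannot give a p below 0.333. The median difference (Cre-positive minus Cre-negative) was 0.24 over the 21 probe sets and 0.04 over all tested.

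**Figure D1:**
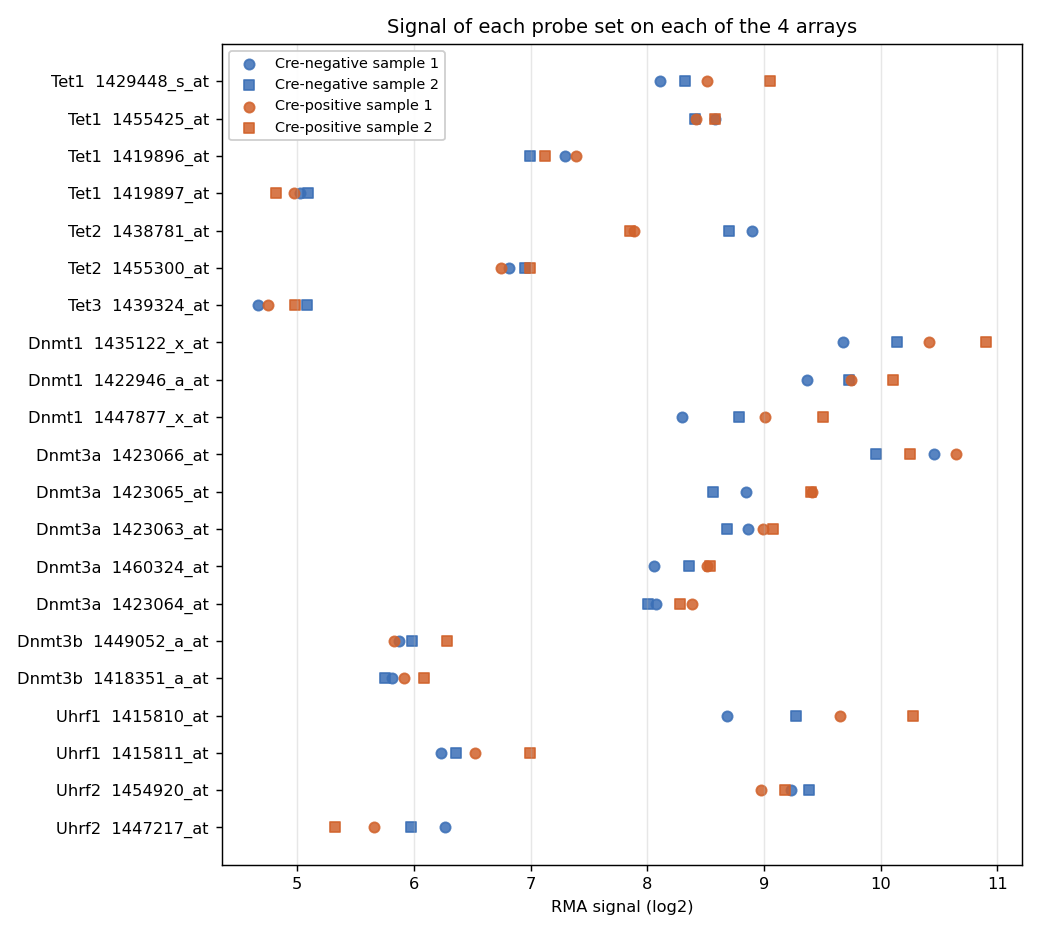
RMA signal (log2, horizontal axis) of each of the 21 probe sets (rows) on each of the 4 arrays; colour marks the group and marker shape the sample number. The Tet2 probe set 1438781_at reads 8.90 and 8.70 in Cre-negative against 7.89 and 7.85 in Cre-positive mice, while levels of different probe sets are not comparable with each other.

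**Figure D2:**
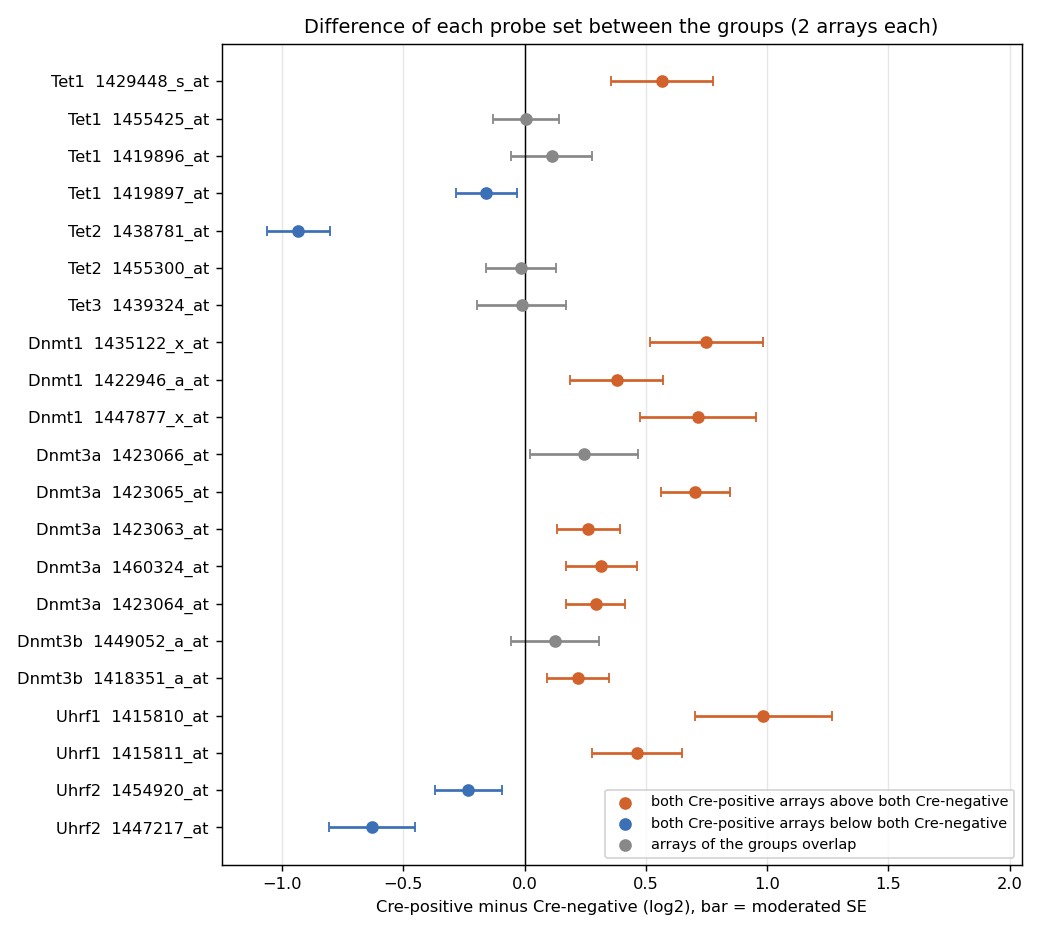
Difference between the group means (log2, horizontal axis; 2 arrays per group) for each probe set (rows), with the moderated standard error as bars and colour for overlap of the arrays. Uhrf1 1415810_at lies at 0.98 and Tet2 1438781_at at −0.93, the highest and the lowest of the 21.

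Uhrf1, whose protein binds hemimethylated CpG sites behind the replication fork, had the highest difference of these genes. Its probe set 1415810_at read 8.69 and 9.28 in Cre-negative mice against 9.65 and 10.28 in Cre-positive mice. Both Cre-positive arrays lay above both Cre-negative arrays, with 0.38 between the nearest arrays of the groups. The difference was 0.98 ± 0.28 (SE, n = 2 per group), 1.98 times on a linear scale, against gaps of 0.59 and 0.63 between the mice within the groups. The dimmer probe set 1415811_at read 6.23 and 6.36 against 6.52 and 6.99. It ran in the same direction, with a difference of 0.46 ± 0.19 that did not exceed the 0.47 between the Cre-positive mice. The 2 probe sets share 1 source sequence in the annotation and are not independent. Leaving out 1 array at a time, the difference of 1415810_at lay between 0.67 and 1.30, and that of 1415811_at between 0.23 (without Cre-positive sample 2) and 0.70.

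Dnmt1, the maintenance methyltransferase, followed the same order of arrays in its 3 probe sets. The brightest, 1435122_x_at, read 9.68 and 10.14 in Cre-negative against 10.41 and 10.90 in Cre-positive mice, a difference of 0.75 ± 0.23. Probe set 1447877_x_at read 8.30 and 8.79 against 9.01 and 9.50, a difference of 0.72 ± 0.24. Probe set 1422946_a_at read 9.37 and 9.73 against 9.75 and 10.11, a difference of 0.38 ± 0.19 with 0.02 between the nearest arrays. The arrays did not overlap in any of the 3, and the gaps within the groups, 0.36 to 0.49, were of a like size in both groups. The ending _x_at marks probe sets that can also bind other sequences, so the 2 larger differences rest on probes of that kind. Leaving out 1 array at a time, the differences lay between 0.50 and 0.99, 0.47 and 0.96, and 0.20 and 0.56, in the order given. The low values came without Cre-negative sample 1 or Cre-positive sample 2.

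Uhrf1 and Dnmt1 ran side by side over the mice, lowest in Cre-negative sample 1 and highest in Cre-positive sample 2. As deviations from the mean of the 4 arrays, Uhrf1 1415810_at stood at −0.79, −0.20, 0.18 and 0.80 over the Cre-negative and then the Cre-positive mice. Dnmt1 1435122_x_at stood at −0.61, −0.14, 0.13 and 0.62. The 16 S phase genes averaged −0.66, 0.09, 0.00 and 0.57, and the 12 G2 and mitosis genes −0.99, 0.22, −0.23 and 1.00. The extremes were the same mice, but for both list means Cre-negative sample 2 lay above Cre-positive sample 1, while for Uhrf1 and Dnmt1 it lay below. Single genes of the S phase list differed in this. In 9 of the 16 both Cre-positive arrays lay above both Cre-negative arrays, as for Uhrf1 and Dnmt1, and 7 overlapped. All 12 G2 and mitosis genes overlapped. Over all probe sets above the filter 31.5% lay higher without overlap.

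**Figure D3:**
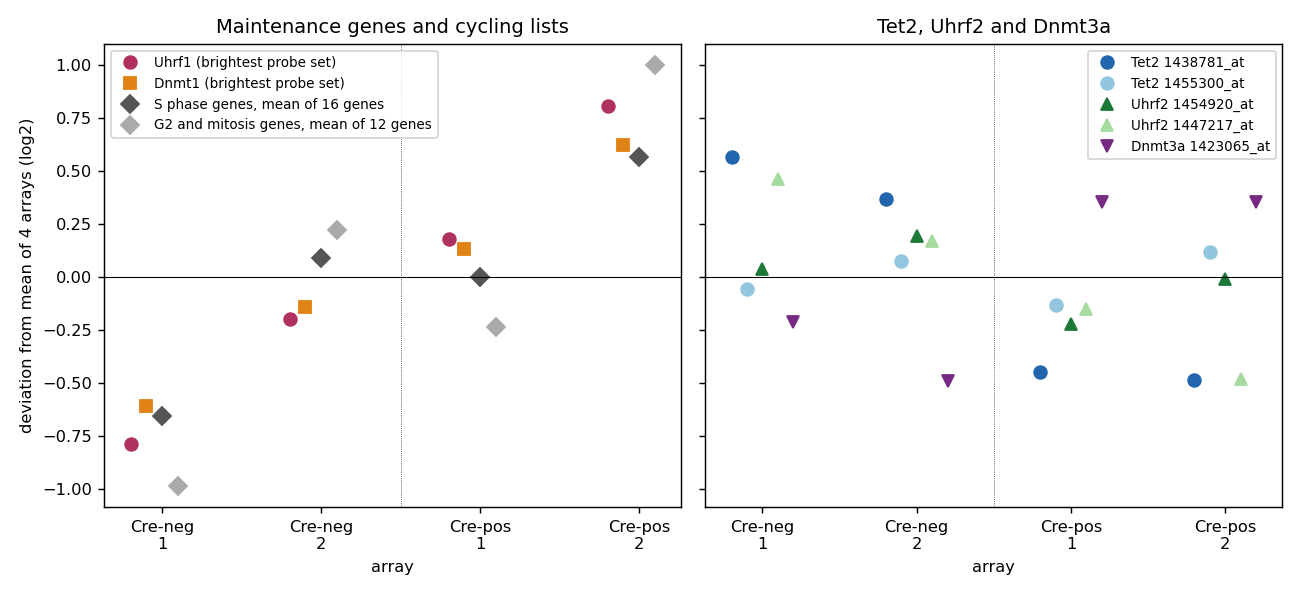
Deviation of each array from the mean of the 4 arrays (log2, vertical axis), by array (horizontal axis; points are shifted sideways for legibility). Uhrf1 and Dnmt1 (left) span −0.79 to 0.80. The mean of the S phase list spans −0.66 to 0.57 and that of the G2 and mitosis list −0.99 to 1.00. For both list means Cre-negative sample 2 lies above Cre-positive sample 1, unlike for Uhrf1 and Dnmt1. Tet2 1438781_at and Dnmt3a 1423065_at (right) separate the groups with small gaps within them, while Tet2 1455300_at overlaps.

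The genes whose 4 array values were most like those of Uhrf1 were looked for among the brightest probe sets of 11638 other genes, by the root mean square distance between deviations. The nearest was Mcm5, a subunit of the replicative helicase, at 0.036. It was followed by the cyclin-dependent kinase subunit gene Cks1b at 0.069, the uracil-DNA glycosylase gene Ung at 0.082, the growth-regulated gene Pa2g4 at 0.085 and Dscc1, of an alternative clamp loader, at 0.093. Dnmt1 lay at 0.13, with 19 genes nearer, and Tet1 1429448_s_at at 0.25, with 160 nearer. Tet2 1438781_at, at 1.03, had 11524 genes nearer. A match over 4 arrays is a description only.

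Promoters of these genes were read from the RefSeq table (GRCm38.p6), which holds 14 windows for all 9 genes, each 250 bases before to 50 after an annotated start. They are shown for Uhrf1 and Dnmt1, which varied together, and for Tet2, which had the lowest difference. Capitals mark GGGAA or its reverse complement TTCCC, the core that Ikaros binds, and the E2F word TTTGGCGC. The second E2F word searched, TTTCCCGC, contains TTCCC, and each was searched on both strands.
Uhrf1, first start (chr17:56303087-56303386, + strand): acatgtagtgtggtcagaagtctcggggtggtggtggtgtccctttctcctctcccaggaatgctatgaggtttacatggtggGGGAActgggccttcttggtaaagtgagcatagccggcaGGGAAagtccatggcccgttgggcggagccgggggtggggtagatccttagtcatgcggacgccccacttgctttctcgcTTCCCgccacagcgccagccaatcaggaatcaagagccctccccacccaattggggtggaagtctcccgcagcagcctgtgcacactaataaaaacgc
Uhrf1, second start (chr17:56304063-56304362, + strand): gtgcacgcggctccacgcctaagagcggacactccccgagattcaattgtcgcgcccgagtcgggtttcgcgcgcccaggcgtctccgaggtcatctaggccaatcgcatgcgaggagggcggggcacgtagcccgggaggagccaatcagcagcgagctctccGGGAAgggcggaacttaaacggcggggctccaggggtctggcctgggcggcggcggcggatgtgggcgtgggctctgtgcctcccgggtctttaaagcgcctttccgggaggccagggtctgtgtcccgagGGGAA
Dnmt1, start with the E2F word (chr9:20952574-20952873, - strand): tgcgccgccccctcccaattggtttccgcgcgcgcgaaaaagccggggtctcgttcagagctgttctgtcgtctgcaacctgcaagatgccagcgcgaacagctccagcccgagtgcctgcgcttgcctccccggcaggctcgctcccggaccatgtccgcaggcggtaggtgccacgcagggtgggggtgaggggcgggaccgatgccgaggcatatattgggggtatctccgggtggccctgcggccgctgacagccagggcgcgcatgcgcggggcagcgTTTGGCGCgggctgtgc
Tet2 (chr3:133544341-133544640, - strand): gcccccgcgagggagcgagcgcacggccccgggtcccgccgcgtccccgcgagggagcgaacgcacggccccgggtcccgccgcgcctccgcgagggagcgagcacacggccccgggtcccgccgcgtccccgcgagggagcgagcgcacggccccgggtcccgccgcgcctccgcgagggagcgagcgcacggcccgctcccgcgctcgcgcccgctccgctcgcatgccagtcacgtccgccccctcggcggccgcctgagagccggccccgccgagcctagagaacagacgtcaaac
The Uhrf1 windows hold 3 and 2 copies of the Ikaros core, the Tet2 window 0, and the Dnmt1 window 0 copies but 1 E2F word. The other 2 Dnmt1 windows hold 0 E2F words, and 1 of them has 1 Ikaros core. Over the 14 windows 9 hold the core, where 62.7% of all 32851 promoter windows do, and 1 holds an E2F word, where 1.6% do. The Tet2 window has 57 CpG dinucleotides, at percentile 99.9 of all windows (median 7), against 33 in the Dnmt1 window and 12 and 33 in those of Uhrf1. A match of letters is no evidence of binding, and its absence says only that these letters are not in the window.

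Dnmt3a, a de novo methyltransferase, had a positive difference in each of its 5 probe sets, which all share 1 source sequence. The largest was in 1423065_at, which read 8.84 and 8.57 in Cre-negative against 9.41 and 9.41 in Cre-positive mice. The Cre-positive mice were almost equal there, and the difference of 0.70 ± 0.14, 1.63 times on a linear scale, exceeded the gap of 0.28 between the Cre-negative mice. Probe set 1460324_at read 8.06 and 8.36 against 8.51 and 8.54, 1423064_at 8.07 and 8.004 against 8.38 and 8.28, and 1423063_at 8.87 and 8.68 against 8.996 and 9.07. Their differences were 0.32 ± 0.15, 0.29 ± 0.12 and 0.26 ± 0.13, without overlap. The brightest, 1423066_at, read 10.45 and 9.96 against 10.65 and 10.25 and overlapped, with a difference of 0.24 ± 0.22 that was −0.0057 without Cre-negative sample 2. In Cre-negative sample 2, 4 of the 5 Dnmt3a probe sets read lower than in sample 1. Leaving out 1 array at a time, 1423065_at differed by 0.57 to 0.84, and 1460324_at by 0.17 without Cre-negative sample 1 and 0.47 without Cre-negative sample 2. Likewise 1423063_at differed by 0.35 and 0.17.

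Dnmt3b, the other de novo enzyme, lay near the middle of the signal range, with smaller differences. Probe set 1418351_a_at read 5.81 and 5.75 in Cre-negative against 5.92 and 6.08 in Cre-positive mice, a difference of 0.22 ± 0.13 without overlap that was 0.14 without Cre-positive sample 2. Probe set 1449052_a_at read 5.88 and 5.98 against 5.83 and 6.28. Its groups overlapped, and the difference of 0.13 ± 0.18 was −0.10 without Cre-positive sample 2.

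Tet2, whose 2 probe sets come from different source sequences, gave different pictures in each. Probe set 1438781_at read 8.90 and 8.70 in Cre-negative against 7.89 and 7.85 in Cre-positive mice. The Cre-positive arrays lay 0.82 below the nearest Cre-negative array, while the mice within a group were 0.20 and 0.04 apart. The difference was −0.93 ± 0.13, so the Cre-negative mean was 1.91 times the Cre-positive mean on a linear scale, and 1.0% of all probe sets tested had a difference this low or lower. Leaving out 1 array at a time kept it between −1.03 and −0.84. Probe set 1455300_at read 6.82 and 6.95 against 6.75 and 6.99, with overlap and a difference of −0.02 ± 0.14. No source used here places the probes within Tet2, so which of its transcripts each one reads was not tested.

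Tet1 had 4 probe sets, of which 1 stood apart. Probe set 1429448_s_at read 8.11 and 8.33 in Cre-negative against 8.51 and 9.05 in Cre-positive mice. It did not overlap and differed by 0.57 ± 0.21, in the same order of arrays as Uhrf1, and its ending marks probes shared between transcripts. The difference was 0.29 if Cre-positive sample 2 was left out and 0.84 if sample 1 of that group was. Probe set 1455425_at read 8.58 and 8.41 against 8.42 and 8.58, a difference of 0.0044 ± 0.14 that was −0.03 with arrays centred on their median. Probe set 1419896_at read 7.29 and 6.99 against 7.38 and 7.12, a difference of 0.11 ± 0.17 with overlap. The dimmest, 1419897_at, read 5.02 and 5.09 against 4.97 and 4.82, a difference of −0.16 ± 0.13 with 0.05 between the nearest arrays. Tet3 was represented by 1 probe set, 1439324_at, close to the filter. It read 4.66 and 5.09 against 4.75 and 4.98, a difference of −0.01 ± 0.19 with overlap, so no direction can be given for Tet3.

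Uhrf2, a paralog of Uhrf1 that binds 5-hydroxymethylcytosine and does not replace UHRF1 in maintenance methylation, was lower in Cre-positive mice in both probe sets. The brighter, 1454920_at, read 9.23 and 9.39 in Cre-negative against 8.97 and 9.18 in Cre-positive mice. The groups were only 0.05 apart at the nearest arrays, and the difference was −0.23 ± 0.14, or −0.13 without Cre-positive sample 1 and −0.15 without Cre-negative sample 2. The dimmer, 1447217_at, read 6.27 and 5.97 against 5.66 and 5.33, a difference of −0.63 ± 0.18 with 0.32 between the nearest arrays. Its order of arrays was the reverse of that of Uhrf1, highest in Cre-negative sample 1 and lowest in Cre-positive sample 2. The 2 probe sets come from different source sequences. With arrays centred on their median they differed by −0.26 and −0.66, and Uhrf1 by 0.95 and 0.43.

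The other genes of the pathway were taken as 6 lists, each gene by its brightest probe set. Of the 49 genes above the filter 0 were called higher and 0 lower in limma, where 0.885% of all 11639 genes were called in this fit, 0.747% higher and 0.137% lower. An unadjusted p under 0.05 was reached by 13, where 19.4% of all did. The median difference of all genes was 0.06. The medians of the lists given below were positive, but those of the partner, methyl-CpG binding and CXXC lists turned negative under some settings, in 7 of 84 recomputations of list medians, also when single arrays were left out.

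Among methyltransferase partners, 0 of 9 passed (0 at an unadjusted p under 0.05), with a median difference of 0.16. Hells, a remodeller that helps DNMTs reach chromatin, read 7.24 and 8.22 in Cre-negative against 8.02 and 8.87 in Cre-positive mice and overlapped (0.72 ± 0.41). The tRNA methyltransferase gene Trdmt1 differed by 0.23 ± 0.12 and Cdca7, which recruits HELLS, by 0.18 ± 0.12. Dimmer probe sets of these genes overlapped and differed by 0.27 (Hells 1430139_at), 0.13 (Trdmt1 1419750_at) and −0.03 (Cdca7 1445681_at). Pcna, the sliding clamp, differed by 0.21 ± 0.24 with overlap.

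Methyl-CpG binding proteins went in both directions, with 0 of 7 called (4 at an unadjusted p under 0.05) and a median of 0.07 (0.02 to 0.13 with 1 array left out). Zbtb38, a zinc finger protein that binds methylated DNA, read 7.03 and 6.89 against 8.36 and 7.71 (1.07 ± 0.23; limma adjusted p = 0.0848). Zbtb4, of the same family, read 9.01 and 8.72 against 8.37 and 8.14 (−0.61 ± 0.16; limma adjusted p = 0.12). Mbd2, the NuRD-associated reader, differed by −0.38 ± 0.12. The arrays of these 3 genes did not overlap between groups, but 2 of the 4 Zbtb4 probe sets did overlap.

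Base excision repair had a median of 0.21, with 0 of 11 called (5 at an unadjusted p under 0.05). Its genes went in both directions, with 6 positive and 5 negative differences. Apex1, the abasic site endonuclease, read 8.77 and 9.22 against 9.71 and 9.78 (0.75 ± 0.18; limma adjusted p = 0.103), and its other probe sets differed by 0.83 and 0.91. Ung read 7.30 and 7.88 against 8.19 and 8.69 (0.85 ± 0.26), with its lowest and highest mice the same as those of the cycling lists. Parp1, a sensor of DNA breaks, differed by 0.59 ± 0.12, but another of its 4 probe sets by −0.69 ± 0.15, so no direction is given for it. Mbd4, a thymine glycosylase counted in this list and the one before, differed by 0.66 ± 0.23 and by 0.70 and 0.40 in its other probe sets. Neil1 was lower without overlap, with 9.40 and 8.90 against 8.69 and 8.60 (−0.50 ± 0.19). Polb differed by −0.20 ± 0.12 in its brightest probe set. In 1434229_a_at, 1425371_at and 1439840_at Polb differed by −0.24, −0.78 and −0.82, and none of these probe sets overlapped.

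Of the cofactors and regulators of TET proteins 0 of 9 passed (3 at an unadjusted p under 0.05), with a median of 0.19 (0.05 without Cre-positive sample 2). Ogt, the O-GlcNAc transferase that binds TET proteins, read 12.12 and 11.91 against 11.49 and 11.30 (−0.63 ± 0.14; limma adjusted p = 0.0964). Its other 4 probe sets lay between −0.66 and −0.51, and none overlapped between groups. Cxxc5, a CXXC protein linked to TET2 levels, differed by 0.67 ± 0.20, and its second probe set by 0.53. Gadd45g differed by 1.02 ± 0.37 and read 6.98 in Cre-positive sample 2 against 5.24 to 5.85 elsewhere. Idh1 and Idh2, which make the 2-oxoglutarate that TET enzymes use, differed by 0.02 and 0.11 with overlap.

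The supply of S-adenosylmethionine, the methyl donor, had a median of 0.26, with 0 of 9 passing (2 at an unadjusted p under 0.05). The median was 0.06 without Cre-positive sample 2 and 0.15 without any other single array. Ahcy, which clears the inhibitory product S-adenosylhomocysteine, read 8.88 and 9.20 against 9.49 and 9.67 (0.54 ± 0.16). The one-carbon enzyme genes Shmt2 and Mthfd1 differed by 0.69 ± 0.25 and 0.57 ± 0.28. All 3 were lowest in Cre-negative sample 1, as were the cycling lists. CXXC domain chromatin proteins, which bind unmethylated CpG, had a median of 0.18, with 0 of 5 called (0 at an unadjusted p under 0.05). Kdm2b differed by 0.30 ± 0.14 and Cxxc1 by −0.23 ± 0.15. Kdm2a differed by 0.26 ± 0.12 in its brightest probe set and by −0.90 ± 0.12 in another (1438890_at). Its probe sets 1444358_at and 1443336_at differed by −0.55 and −0.30, so no direction is given for Kdm2a.

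**Figure D4:**
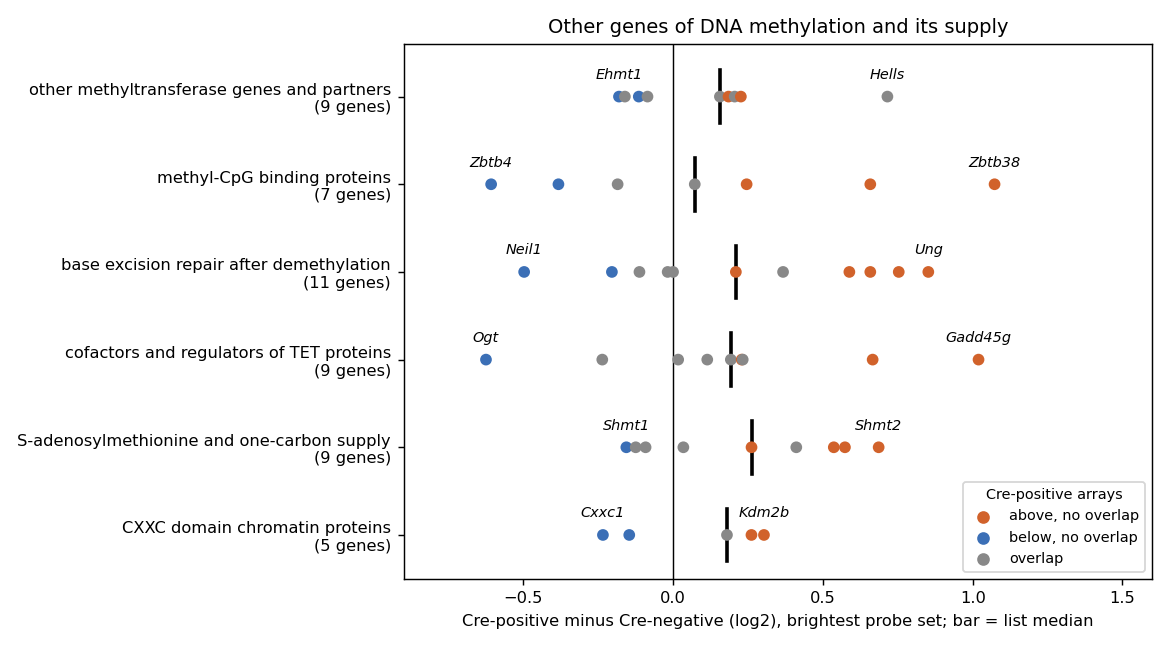
Difference between the group means (log2, horizontal axis) of each gene above the filter in 6 lists (rows), by its brightest probe set; black bars are list medians and colour marks overlap of the 2 against 2 arrays. The medians lie between 0.07 and 0.26, with Zbtb38 at 1.07 and Ogt at −0.63 as the outermost genes.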

How the data were processed

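The deposited values are log2 signals, 1 per probe set and array, made by the authors with RMA (version not stated), per the submitters' processing notes; the base of the logarithm is taken from the scale RMA returns. Gene symbols came from the platform annotation: of 45037 probe sets, 34945 had 1 symbol, 932 several and 9160 none, and 34741 matched the current RefSeq table by Entrez identifier. Probe sets with 1 symbol and a mean at or above the 40th percentile (4.76) were fitted together in limma 3.58.1 (lmFit and eBayes, R 4.3.3). Two-sided p-values were adjusted by Benjamini-Hochberg across 20967 probe sets, with a threshold of 0.05. Residual degrees of freedom were 2 and prior ones 3.55, and SE is its moderated standard error. Genes were represented by their brightest probe set in that fit. Named were all probe sets of the genes studied, Ikzf1, and the called genes and 3 smallest unadjusted p-values of each pathway list. Also named were the 5 genes most like Uhrf1. A few further list genes (Pcna, Mbd4, Neil1, Polb, Idh1, Idh2) and cell type markers were picked after their values were seen. The members and lists were chosen with earlier results of these data known. The procedure was tested on simulated data. There it recovered 31 of 100 probe sets changed by 1 and 96 of 100 changed by 2, and 14 of its 141 calls were false. That share of false calls is above the threshold of 0.05. The number of arrays limits the precision. Some listed genes were not analysed here. Figures were drawn with matplotlib 3.10.9.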

Additional observations from a re-analysis of the deposited data

How the results depend on the processing

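Over all probe sets 182 were called in limma. The count was 105 with the filter at the 60th percentile, 106 without probe sets ending in _s_at, _x_at or _a_at, 302 with a variance trend and 297 with a robust prior. Leaving out 1 array gave 4 to 48: 21 and 4 when the array left out was Cre-negative sample 1 or 2, and 7 and 48 when it was Cre-positive sample 1 or 2. Of the probe sets described, 0 were called, but Tet2 1438781_at was the 1 called with no filter, with the brightest probe set per gene refitted, with centred arrays, with a trend and with a robust prior. Its adjusted p then lay between 0.0418 and 0.0497, and 0 were called when any 1 array was left out. With the sample number as a replicate block 1475 probe sets and 6 of those described were called (of Uhrf1, Dnmt3a, Dnmt1, Tet2 and Uhrf2), and 5 genes of the pathway lists (Hells, Zbtb38, Apex1, Ung and Ogt). Deviations of same-numbered samples correlated at 0.15 across probe sets; no label says that the numbers pair the mice, so the block is no main result. Leaving out 1 array moved Tet3 between −0.22 and 0.20 (0.20 without Cre-negative sample 2 and 0.10 without Cre-positive sample 1), Dnmt3a 1423066_at between −0.0057 and 0.49 and Dnmt3b 1449052_a_at between −0.10 and 0.35, so their sign depended on 1 mouse. The same held for Tet1 1419896_at (−0.04 to 0.26), Tet1 1455425_at (−0.08 to 0.09) and Tet2 1455300_at (−0.14 to 0.11). Medians of the pathway lists moved by more than the spread between replicates in 20 of 84 recomputations. With each gene averaged over its probe sets, that of methyl-CpG binding proteins was −0.19 and that of CXXC proteins −0.15, and without the filter that of methyltransferase partners was −0.02.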
